A study of Danio rerio with 9 samples.

Results

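Strong peaks that a single sperm library carried alone made up a small minority of the strong ATAC-seq peaks of zebrafish spermatozoa. In each of 9 peak lists the 5000 peaks of highest score were taken as strong. A strong peak was kept when it lay on chromosomes 1 to 25, chromosome 4 left out, and shared not even 1 bp with a peak of any of the other 8 full lists. This left 1609 peaks, called one-library peaks here, of 32611 strong peaks on those chromosomes, and of 253847 peaks in all. They were thus chosen by their score and by the absence of a peak elsewhere, so their score and width are given as a description. The choice did not directly use the injury, nor the distance to other peaks of the same list or to a chromosome end, and only these are tested. Distance within a list is still not independent of the choice. Where all lists are crowded, a peak can more easily touch one of another list.

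Sperm had been taken from 2 groups of Danio rerio males. The injured group (5 libraries) was sampled 7 days after cardiac cryoinjury, in which a cold probe kills part of the heart muscle, and the control group (4 libraries) was uninjured. Each library was prepared from 100000 spermatozoa, and the labels state no strain, age, transgene or batch, nor whether a library is 1 male. The spread between libraries may therefore be technical. Read depth per library is unknown, so a position without a peak is one at which none was called, not one shown to be closed. Only peak positions and scores were at hand, so the cell type could not be checked against marker genes. No library was a copy of another, since at most 0.114% of the peaks of a list had exactly the same ends in a different list.

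In ATAC-seq, the Tn5 transposase cuts and tags DNA that nucleosomes and other proteins leave exposed, and a peak caller marks stretches where such cuts pile up. Sperm chromatin is compact, and zebrafish sperm is known to keep its DNA on nucleosomes in place of the protamines that mammalian sperm uses. Peak lists of the same cell type normally share their strongest peaks, so a strong peak with no counterpart in any other list is an exception to that pattern.

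One-library peaks were much rarer among strong peaks than among all peaks. They were 4.93% of the strong peaks on the chromosomes used, against 32.1% of all 198274 peaks there. The share climbed steadily down the ranking. It averaged 0.401% ± 0.484 (SD, n = 9) in ranks 1 to 500, 2.06% ± 1.54 in ranks 1001 to 2000 and 10.7% ± 2.78 in the last 1000 ranks before the limit. Past rank 5000 it went on, with 19.9% ± 3.36 up to rank 10000 and 31.5% ± 3.79 from there to rank 15508, the last that every list reaches. One-library peaks therefore sat low among the strong ones. Their median rank per library lay between 3480.5 and 4082.5, against 2459.5 to 2562 for the other strong peaks, and 44.9% of them were in the last 1000 of the 5000 ranks, against 19.4% of the others. In the best 1000 ranks there were 42. At the opposite extreme, 9142 strong peaks overlapped a peak in all 8 other lists.

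**Figure D1:**
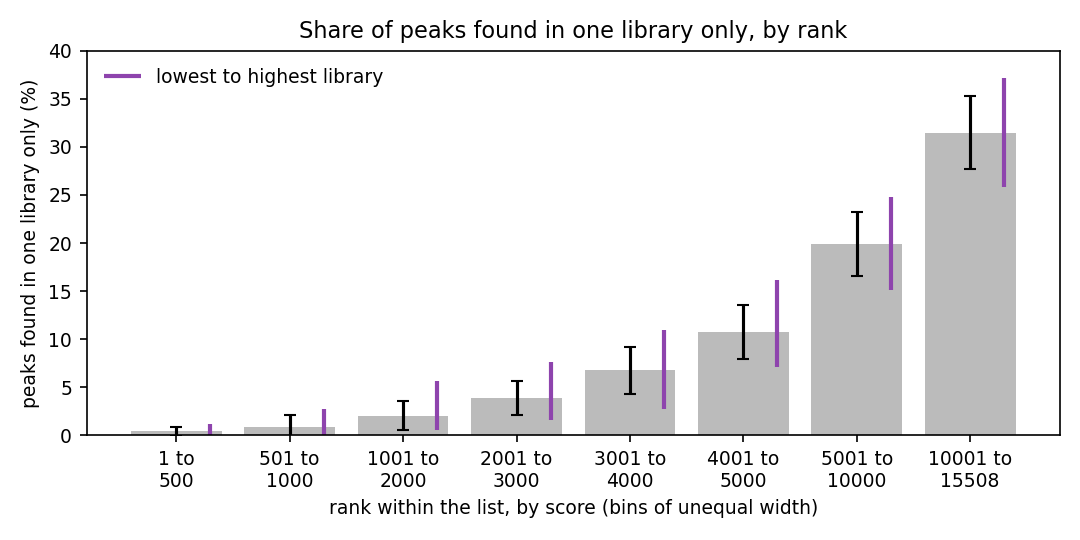
Percentage of peaks that overlap no peak of the other 8 lists (vertical axis) by rank within the list (horizontal axis, bins of unequal width). Bars are means over the 9 libraries with SD, and purple lines run from the lowest to the highest library; the mean climbs to 31.5% in the last bin.

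A difference between the groups in the number of one-library peaks was not established. Injured libraries 1 to 5 held 272, 168, 232, 151 and 216, and control libraries 1 to 4 held 168, 113, 188 and 101. The groups overlap, with injured libraries 2 and 4 below control library 3. The 5 injured libraries averaged 207.8 ± 48.95 and the 4 control libraries 142.5 ± 42.1 (SD), a difference of 65.3 peaks (exact two-sided permutation p = 0.0794). Expressed as a percentage of the strong peaks on these chromosomes the averages were 5.76% ± 1.23 in injured libraries and 3.88% ± 1.11 in control ones (SD; exact permutation p = 0.0714). These are 2 views of a single difference and their p-values are not adjusted.

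A fixed rank does not mean the same in every list. Rank 5000 took in 16.9% to 32.2% of an injured list and 11.0% to 16.6% of a control list, and the score there ran from 43 to 62 among injured libraries and from 57 to 80 among control ones. When the best 15% of each list were taken instead, the difference changed sign, with 2.93% ± 2.16 over the 5 injured libraries and 4.01% ± 0.460 over the 4 control ones (SD; exact permutation p = 0.381). Among all peaks of the lists on these chromosomes the one-library share was likewise lower in injured libraries, at 28.3% ± 4.08 (SD, n = 5), than in control libraries, at 34.4% ± 1.29 (SD, n = 4). Injured lists were shorter, however, with 15508 to 29622 peaks against 30126 to 45277 in control lists. Both views therefore end at smaller ranks in injured lists, and the share climbs down the ranking. Neither can tell the group apart from the length of the list. Counts at a fixed rank cannot do so either, since the lengths of the 2 groups do not overlap. The lists that a peak was held against also differed. Those opposite an injured library contained more peaks together, 224225 to 238339, than those opposite a control library, 208570 to 223721. With the other lists cut to the length of the shortest, injured libraries averaged 357.8 ± 93.7 one-library peaks and control ones 240.25 ± 61.7 (SD; exact permutation p = 0.0635). As percentages these were 9.94% ± 2.53 and 6.55% ± 1.63 (SD; exact permutation p = 0.0635). The strong peaks still came from lists of unlike length, so here too group and length cannot be told apart.

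The 42 one-library peaks in the best 1000 ranks came mainly from 3 libraries. There were 13 in injured library 1, 11 in injured library 2 and 13 in control library 3. Control library 4 had 2, injured library 3 and control libraries 1 and 2 had 1 each, and injured libraries 4 and 5 had 0. Over the whole set, 156 one-library peaks scored at least 2 times the value at rank 5000 of their list, 70 of them in injured library 1. At 5 times that value there were 30, with 13 in injured library 1, 8 in injured library 2 and 6 in control library 3.

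**Figure D2:**
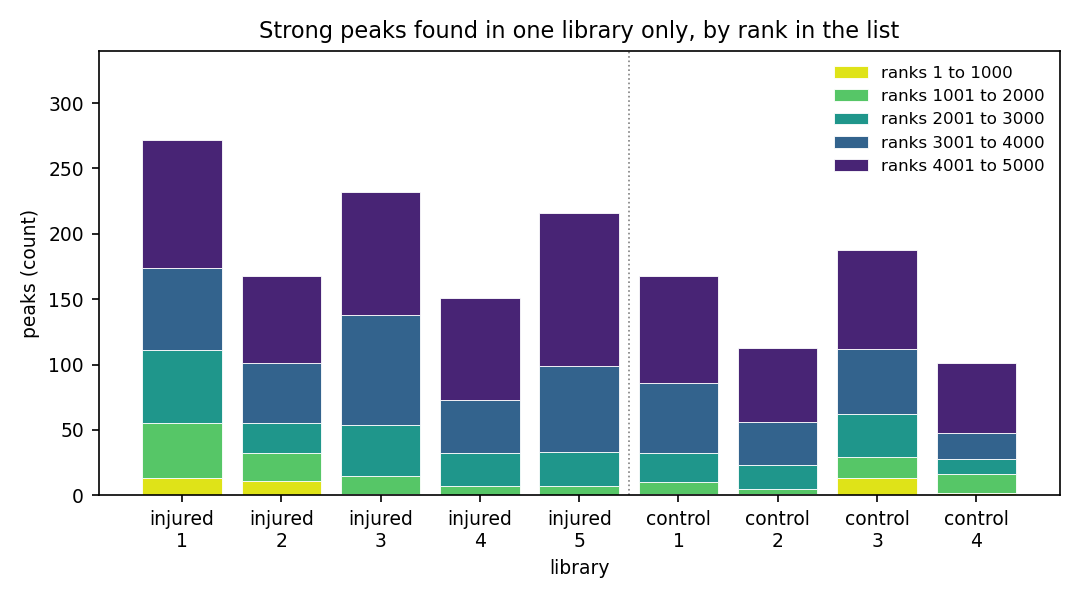
Number of strong peaks found in 1 library only (vertical axis) in each library (horizontal axis, injured left of control), stacked by rank within the list. The bars reach 272 in injured library 1 and 101 in control library 4, and the part from ranks 1 to 1000 is visible mainly in injured libraries 1 and 2 and control library 3.

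One-library peaks were narrow. Their pooled median width was 245 bp, with quartiles of 198 and 327 bp, against 370 bp and quartiles of 259 and 543 bp for the other strong peaks. The median was smaller in 9 of 9 libraries, at 208.5, 292, 274.5, 253 and 223.5 bp in injured libraries 1 to 5 and 245, 286, 218 and 230 bp in control libraries 1 to 4. For the other strong peaks of the same lists it lay between 322 and 421 bp. Widths over 1 kb occurred in 3 one-library peaks and in 1615 (5.21%) of the others. No test is given, since a wide peak has more positions at which a peak of another list can touch it.

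In medians pooled over libraries the gap in width was largest at the top of the ranking. In ranks 1 to 500 the pooled median was 225 bp for one-library peaks, only 13 in number, and 592 bp for the others. In the following 500 ranks, with 29 one-library peaks, it was 211 and 485 bp. In the last 1000 ranks, with 722, the values had drawn together to 239 and 311 bp. The pooled medians thus changed mainly in the other peaks. These medians pool libraries that differ in width and in how many one-library peaks they have at each rank, and single libraries ran either way. From ranks 1001 to 2000 to the last 1000 ranks, the median of one-library peaks went down from 301 to 217 bp in injured library 5 and from 296 to 232.5 bp in injured library 4. Over the same ranks it was 196 and 209 bp in injured library 1, and 171 and 251 bp in control library 1. In ranks 1001 to 2000 these medians rest on few peaks. There were 7 each in injured libraries 4 and 5, 42 in injured library 1 and 9 in control library 1. Close to the smallest width in their list, within 1.2 times of it, lay 19.7% ± 6.56 of one-library peaks and 6.98% ± 4.71 of the others (SD, n = 9).

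**Figure D3:**
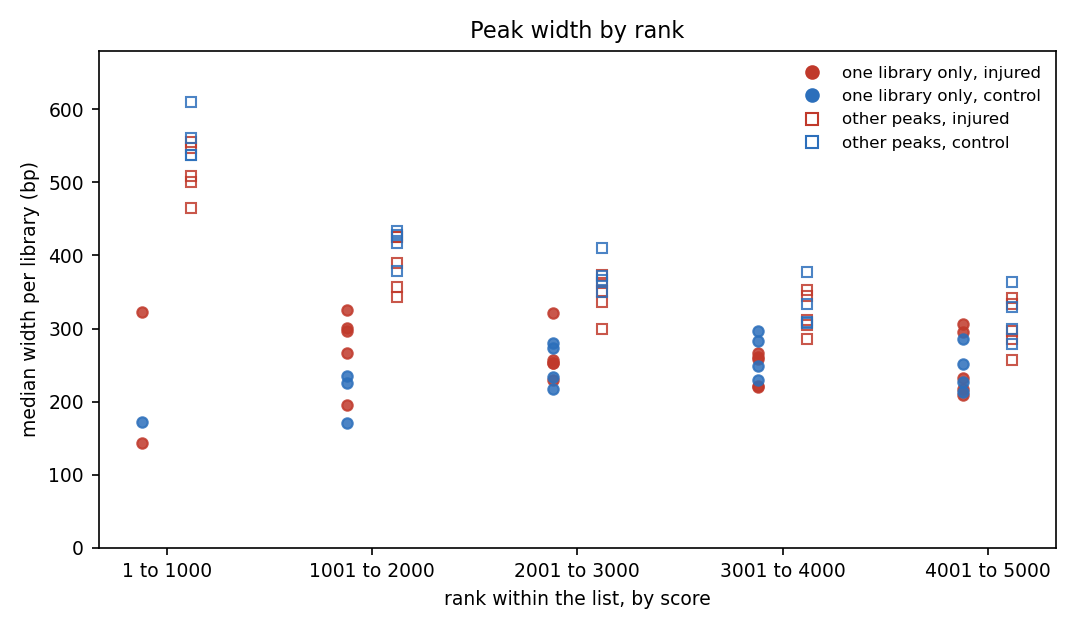
Median peak width in bp per library (vertical axis) by rank within the list (horizontal axis). Filled circles are peaks found in 1 library only, shown where a library has at least 5 in the bin, and open squares are the other peaks of the same ranks; red is injured and blue is control. The squares are highest in ranks 1 to 1000, where the 3 circles stand at 144, 172 and 322 bp; at lower ranks single libraries differ in whether their circles move up or down.

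The 20 best-ranked one-library peaks had ranks 150 to 620, and 11 came from injured and 9 from control libraries. The first was chr14:42109632-42109787 (GRCz11) of control library 4, 156 bp wide with a score of 2047, which is 25.6 times the score at rank 5000 of its list. It was also remote, as the nearest peak of its own list lay 110850 bp away and the nearest of any other list 80243 bp away. The second was chr12:43787088-43787580 of control library 3, 493 bp wide with a score of 1012, whose nearest peak in another list was only 702 bp off. Next in order was chr12:17875184-17875839 of injured library 2, which was broader, at 656 bp, and scored 2003, or 32.3 times the score at rank 5000 there.

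Narrow peaks and broader ones were both present among these 20. Widths under 200 bp were found for 8 of them and widths over 300 bp for another 8. The narrowest was chr20:12807876-12808001 of injured library 1, only 126 bp wide at a score of 1143. Also narrow in control library 3 were chr8:28394725-28394878 (154 bp, score 903), chr20:30982679-30982842 (164 bp, score 643) and chr11:15001940-15002103 (164 bp, score 542). Control library 1 had its best one-library peak at chr19:11933349-11933512 (164 bp, score 470). Injured library 2 contributed the broader chr10:5281206-5281527 (322 bp, score 1518), chr20:32472006-32472474 (469 bp, score 487) and chr11:39425315-39426041 (727 bp, score 397). It also had peaks of 300 and 225 bp among the 20. Control library 3 had others of 493, 265 and 514 bp, and injured library 1 of 449 and 411 bp. The medians for the best 1000 ranks were 144 bp in injured library 1, 322 bp in injured library 2 and 172 bp in control library 3. The smallest width in the whole list differed too, at 119, 187 and 133 bp in that order. Widths under 200 bp were thus hardly available in injured library 2.

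The nearest peak of another list was 389 to 80243 bp away from these 20, with a median of 6412 bp, and 6 of them had one within 1 kb. In their own list 9 of the 20 had a peak within 10 kb.

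In injured libraries 3, 4 and 5 and control library 2 the best one-library peak scored lower than in the other libraries. It reached 4.26, 2.53, 3.02 and 2.98 times the score at rank 5000 of the list, in that order. The score was 183 in injured library 3 (chr21:544204-544501, at rank 504 and so among the 20 above) and 134 in injured library 4 (chr12:17980655-17980868). It was 133 in injured library 5 (chr2:442246-442421) and 182 in control library 2 (chr22:31420662-31421112). The best one-library peak of injured library 4 lay 104815 bp from the one of injured library 2 on chromosome 12 named above. This pair was picked after the positions were seen, and no test was made. Of all one-library peaks, 28.5% had one of another library within 100 kb. At the limit itself, the last one-library peak inside rank 5000 of a list had ranks of 4956 to 4999 and scores of 43 to 80. The first outside had ranks of 5002 to 5040 and scores of the same 43 to 80, so the limit does not fall at a break in the scores.

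One-library peaks stood more alone within their own list than the other strong peaks did, by differences that were smaller and no longer passed at equal rank. Of the one-library peaks 45.3% ± 12.4 had any peak of their own list within 10 kb, against 56.1% ± 8.67 of the other strong peaks (SD, n = 9). The difference of -10.8 percentage points was negative in 8 of 9 libraries (exact paired permutation p = 0.00781, adjusted over 3 properties p = 0.0234). A strong peak of their own list lay within 100 kb of 51.95% ± 8.83 of them and of 63.2% ± 2.34 of the others (SD, n = 9). That difference of -11.2 points was negative in 7 of 9 libraries (exact paired permutation p = 0.0156, adjusted p = 0.0234). The choice itself can drop peaks from stretches crowded in all lists, and its part in these differences was not tested.

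With the other strong peaks weighted to the same numbers per 500 ranks, the differences were -5.57 points (exact paired permutation p = 0.0352, adjusted p = 0.0859) and -4.54 points (p = 0.0859, adjusted p = 0.0859). Each was negative in 7 of 9 libraries. Neither difference was shown to depend on the injury: for 10 kb it was -9.94 points in injured libraries and -11.8 points in control ones (exact permutation p = 0.619, adjusted p = 0.619), and for 100 kb -6.98 and -16.5 points (exact permutation p = 0.111, adjusted p = 0.333).

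Chromosome ends, at which repeats and segmental duplications are common, were not favoured detectably. The outer 500 kb held 5.01% ± 1.70 of one-library and 5.096% ± 0.430 of the other strong peaks (SD, n = 9). The difference was -0.0825 points (exact paired permutation p = 0.887, adjusted p = 0.887), and 1.1 points with the ranks weighted (p = 0.0703, adjusted p = 0.0859), so its sign depends on how rank is treated.

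**Figure D4:**
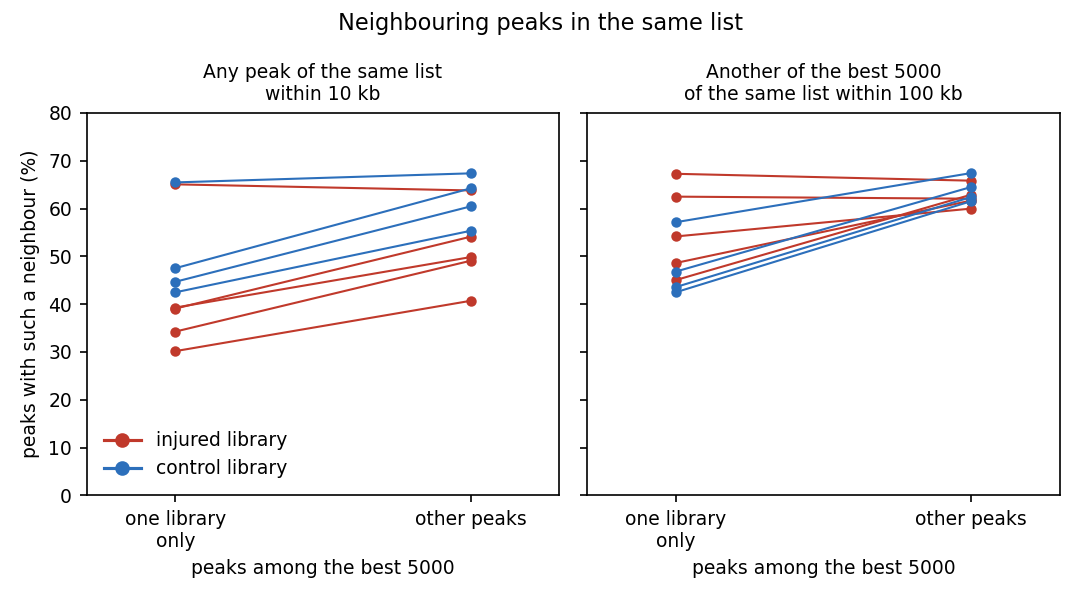
Percentage of strong peaks (vertical axis) with any peak of the same list within 10 kb (left) and with another of the best 5000 of the same list within 100 kb (right), for peaks found in 1 library only and for the other strong peaks. Each line joins the 2 values of a library, red for injured and blue for control; most lines rise to the right, and that of injured library 1 does not in either panel, nor that of injured library 3 on the right.

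Injured library 1 had more clusters of one-library peaks than any other library. It also had the most one-library peaks, 272 against 101 to 232 elsewhere, and the counts and shares below are not corrected for this. Of its other strong peaks 65.8% had a strong peak of the list within 100 kb. No share was computed for equally many other strong peaks, so clustering particular to one-library peaks is not shown. Within 100 kb of another one-library peak of the same list lay 181 (11.2%) of the 1609, in 79 clusters, of which 63 were pairs. Of these clusters 27 were in injured library 1, 3 to 12 in each other injured library and 2 to 9 in each control library. Injured library 1 had 68 such peaks, 25% of its own, while the share was 3.97% to 14.3% in the other injured libraries and 3.54% to 12.5% in control libraries. Within 10 kb the contrast was sharper, with 37 in injured library 1, 0 to 7 in the other injured libraries and 0 to 2 in control libraries. Of the 16 clusters with at least 3 one-library peaks, 9 were in injured library 1. Clusters of 4 were not confined to injured libraries, as control library 1 had one over 95.2 kb (chr16:36333805-36428968).

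The largest cluster joined 5 one-library peaks of injured library 1 on chromosome 5, over 62.9 kb (chr5:53294815-53357733). They were 123 to 449 bp wide and scored 56 to 790, the strongest being chr5:53357285-53357733 at rank 406. This stretch was full of shared peaks, because the same list had 27 peaks in it, 21 of them strong, and the other lists had 106 together. Clusters of 4 in the same library were of that kind. They lay on chromosome 11 (chr11:15126391-15149927, with 85 peaks in the other lists), chromosome 24 (chr24:12478675-12531902, with 166) and chromosome 25 (chr25:26086430-26140624, with 59).

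A cluster of 4 in injured library 2 had a different setting. It spanned 36.7 kb at chr11:31070725-31107464, where its own list had only 5 peaks and the other lists 5 together. All 4 of the strong peaks there were one-library peaks, 230 to 391 bp wide, with scores of 80 to 166. The best, chr11:31104304-31104533, had rank 1268. With 50 kb added on either side, control library 3 had 2 one-library peaks of its own there and control library 4 had 1. Such peaks of other libraries were not particular to this cluster. Around the cluster of injured library 1 on chromosome 5, control library 1 had 2, and control library 3 and injured library 5 had 1 each. Around its cluster on chromosome 25, control libraries 1 and 3 had 1 each. Around that on chromosome 24, control library 1 had 1. Its cluster on chromosome 11 had no such peak around it. In the whole window from 31 to 32 Mb of chromosome 11, 7 of 19 strong peaks (36.8%) were one-library peaks, from 3 libraries. With peaks of any rank counted, the window held 142, so strong peaks were few there but peaks were not.

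**Figure D5:**
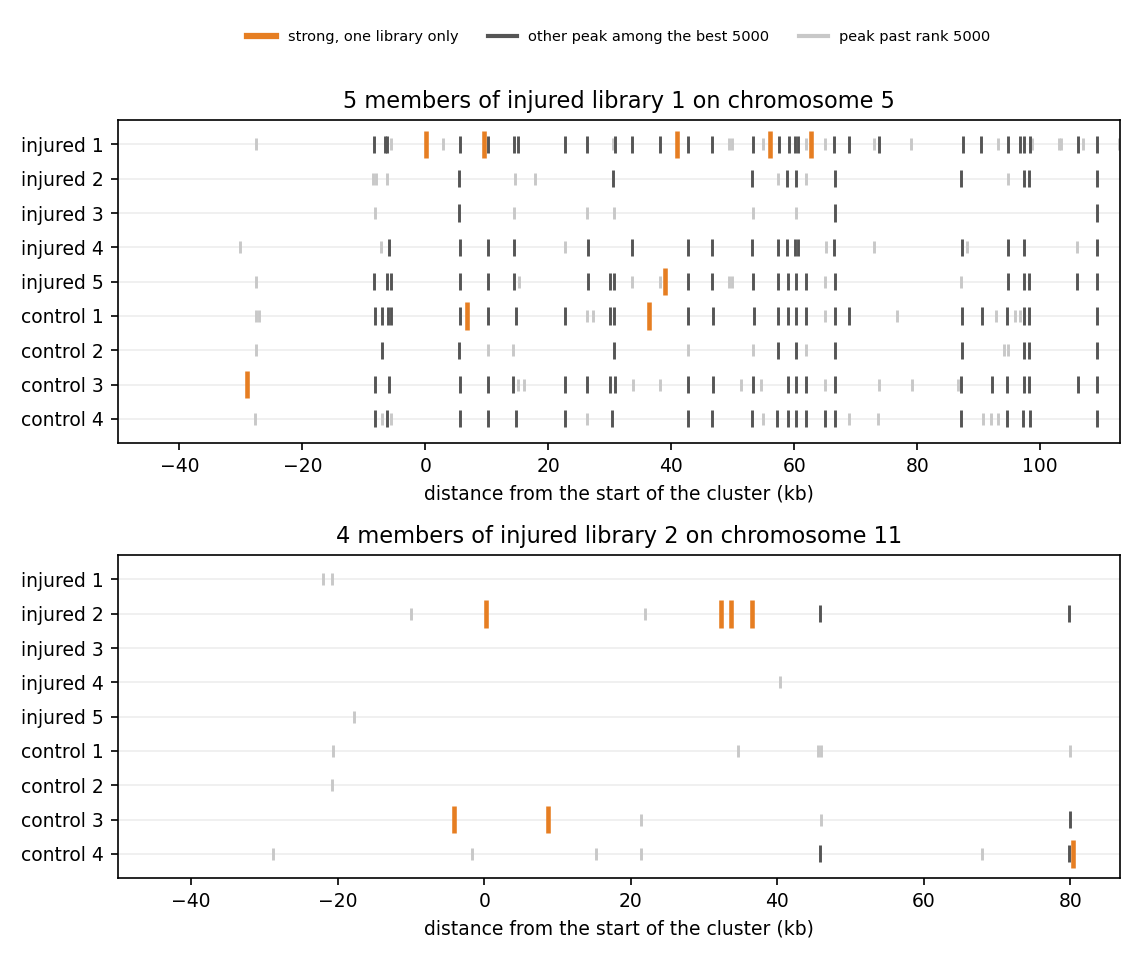
Peaks of the 9 libraries (rows, injured above control) around the 5-peak cluster of injured library 1 on chromosome 5 (top) and the 4-peak cluster of injured library 2 on chromosome 11 (bottom), by distance in kb from the start of the cluster. Orange ticks are strong peaks found in 1 library only, dark grey ticks other strong peaks and light grey ticks peaks past rank 5000. The upper stretch is crowded with peaks at shared positions, and the lower one has far fewer, most of them past rank 5000 or found in 1 library only.

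Along the genome, one-library peaks largely followed where strong peaks were. The 128 windows of 1 Mb with the most peaks held 24.98% of the one-library and 26.3% of the other strong peaks. Ordered by number of peaks, the 10 groups of windows had one-library shares between 4.23% and 5.46% of their strong peaks, except the group with the fewest peaks, in which it was 7.80% (55 of 705). Windows with few peaks also offer fewer peaks of other lists to touch, and the part of this in the higher share was not tested. Of 1282 windows with any peak 498 had no one-library peak, 393 had 1 and 391 had at least 2. The window with the most, 26 to 27 Mb of chromosome 25, had 12, of which 6 were from injured library 1, 1 from injured library 3, 2 from control library 1 and 3 from control library 3. It also had 328 other strong peaks, so its share of 3.53% was under the 4.93% of all strong peaks.

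Single chromosomes differed moderately in this share. It was highest on chromosome 8, with 106 one-library peaks (6.52% of the strong peaks), and lowest on chromosome 17, with 45 (2.85%). On chromosome 8 it exceeded the library's own overall share in 8 of 9 libraries and on chromosome 17 in 0 of 9. Chromosomes 19 and 24 were also low, at 3.69% and 3.43%, with 1 of 9 libraries above its own overall share on each. These chromosomes were picked after their values were seen and no test was made.

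A peak that no other list overlapped was often still close to one. The median distance from a one-library peak to the nearest peak of any other list was 1681 to 3120 bp across injured libraries and 1497 to 5167 bp across control ones. Within 200 bp of a peak of another list lay 8.93% ± 3.38 of them, and within 1 kb 31.3% ± 5.82 (SD, n = 9). Requiring 1000 bp of clearance from every peak of the other lists would leave 1093 of the 1609. More than 10 kb from every peak of the other lists lay 301 (18.7%), and the most remote was 189208 bp away, in injured library 4. Of the one-library peaks, 100 (6.22%) had one of another library within 10 kb and 459 (28.5%) within 100 kb. These distances were not computed for other strong peaks or for other positions of the genome. Closeness is therefore not shown to be particular to one-library peaks.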

How the data were processed

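The authors deposited 1 peak list for each library, with peak positions and a score per peak. In the submitters' processing notes the build is GRCz11, and the tools include MACS2 for peaks and Bowtie2 for alignment, besides SAMtools, Picard, Trim Galore and bedtools. No source used here gives their versions and settings, the scale of the score or the treatment of duplicates. Per the labels' protocols, libraries were sequenced as 100 bp paired-end reads, and 4.6 to 29 M reads per library were retained. The lowest score was 13 in these lists.

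Peaks were ranked by score, ties by larger width, then sequence and start, and overlaps were computed with Python 3.11.15, numpy 2.4.6 and pandas 2.3.3. Chromosome ends were the largest peak end. The call of one-library peaks was tested on simulated lists, the overlap and distance code on real peaks, and the permutation code on random numbers. Groups were compared by exact permutation of the 9 libraries, and one-library with other strong peaks by exact sign flips of the paired differences (smallest p 0.00391), with Benjamini-Hochberg adjustment over 3 properties. Named regions are the best of each library, the best 20, the 5 largest clusters (ties by smaller span) and the fullest 1 Mb window. The tie left out a wider cluster of 4 in control library 1, which is given besides. No GRCz11 sequence or annotation was used here, so 5 planned comparisons of base composition, masking and genes, and the counts for marker gene lists, were not made. The peaks, comparisons and lists were chosen with earlier results of these data known. Some alternatives were added after seeing the data (the closing section gives their effect).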

Additional observations from a re-analysis of the deposited data

Results flagged for a closer look

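Of 30 groups of 4 or 5 library values, 6 had a value far from the rest. At a nominal 1 in 20, about 1.5 would be flagged by chance. The groups come from the same libraries and are not independent, so no excess over chance is shown. In control library 3, 13 one-library peaks were in ranks 1 to 1000, while the next control library had 2. In injured library 1, 37 one-library peaks had another within 10 kb, with 7 in the next injured library. The same library had a difference of 1.28 points in the share with a peak of its own list within 10 kb, where the next highest injured library had -10.5. Control library 1 had a median distance of 5346 bp from a one-library peak to the nearest peak of its own list, against 11776 bp in the next control library. In control library 1 the difference in the share with a strong peak within 100 kb was -10.3 points, against -17.7 in the next. Control library 4 had 36.3% one-library peaks among all its peaks on these chromosomes, and the next control library 33.9%. Its list is the longest, with 45277 peaks. What lies behind these values was not tested.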

How the results depend on the processing

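The total of 1609 one-library peaks became 176 with the best 2000 peaks, 8540 with the best 10000, 2573 if 50% of a peak had to be covered and 2750 with the other lists at equal length (that of the shortest list). It was 1448 to 1980 without any 1 library. The difference in number of 65.3 kept its sign in every alternative for which it was computed. The best 15% of each list, where the percentage changed sign, was not among these. The difference in number passed 0.05 unadjusted with a tolerance of 1000 bp (44), 50% coverage (89.4) and all sequences (86.9), each at exact permutation p = 0.0476. It was 34.9 (without control library 4) to 103 (without injured library 2) on leaving out libraries. As a percentage, 1.88 points became 1.27 with 1000 bp (exact permutation p = 0.0397) and -1.08 with the best 15% of each list, and 1.06 to 2.91 without 1 library; the cause was not tested.

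For neighbours within 10 kb the call was lost with the best 2000 (-10.5 points), the last 1000 ranks (-5.05), ranks weighted (-5.57) and 50 kb (-3.32). For strong neighbours within 100 kb it was lost with the last 1000 ranks (-3.04), ranks weighted (-4.54) and 500 kb (-0.650). Leaving out libraries gave -12.2 to -9.52 and -13.5 to -10.1, and kept both calls. The chromosome-end difference turned positive with the best 2000 (1.35), the last 1000 ranks (0.405), ranks weighted (1.1) and the outer 2 Mb (0.278). It passed as a deficit with the best 10000 (-0.777) and equal length (-1.22), and ran from -0.811 to 0.154 without 1 library.

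Same-numbered injured and control libraries deviated together in 1 Mb windows for numbers 1 and 2 (r = 0.284 and 0.272) but not for 3 and 4 (r = -0.271 and 0.0631), so the numbers were not taken as pairs; 2 of 4 injured and 1 of 4 control libraries correlated best with their own number. With the number as a block the differences were 63.3 peaks and 1.79 points (exact p = 0.125, the smallest possible). Depth is unknown and limits all counts of absent peaks.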

Other observations

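By the same definition, the sequences left out also held strong peaks of a single library. There were 211 on chromosome 4 (3.54% of the strong peaks there), 218 on alternate contigs (6.21%) and 111 on unplaced scaffolds (3.801%).

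Among the 1 Mb windows with at least 5 one-library peaks, a few held many of them for few strong peaks. Besides the window on chromosome 11 described above, examples are 3 to 4 Mb of chromosome 8 with 9 of 24 strong peaks (37.5%, from 5 libraries), 1 to 2 Mb of chromosome 14 with 5 of 15 (33.3%, from 3 libraries) and 20 to 21 Mb of chromosome 6 with 10 of 50 (20%, from 7 libraries). The window at 12 to 13 Mb of chromosome 20, where the best one-library peak of injured library 1 lies, had 5 of 18 (27.8%, from 5 libraries). The share was also 27.8% at 61 to 62 Mb of chromosome 5, 23.8% at 40 to 41 Mb of chromosome 20 and at 45 to 46 Mb of chromosome 10, 23.1% at 60 to 61 Mb of chromosome 3 and 20.7% at 49 to 50 Mb of chromosome 18. These windows were picked after their values were seen, and no test was made.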
